A study of Mus musculus with 6 samples.

Results

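The cadherin superfamily genes measured here comprise the numbered cadherins (Cdh), the numbered protocadherins (Pcdh) and the clustered protocadherins (Pcdhb). The genes were chosen by name, from rows of the deposited table that carry exactly 1 gene symbol. For a gene with several rows, the row was selected on its mean log2 value over all 6 samples, the highest standing for the gene. That mean is no result, and the difference between the groups had no part in the selection of a row. The family itself was taken up with earlier results of these data known. In all, 57 of the 19938 genes on the arrays were members, 23 cadherins and 34 protocadherins. All 22 clustered members were Pcdhb genes.

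The samples came from mouse embryonic stem cells of the W4/129S6 background. A reporter for green fluorescent protein (GFP) sits at the Nkx2-1 locus, which encodes a homeobox factor of lung, thyroid and ventral forebrain. Cultures were differentiated for 14 days and sorted into 3 samples labelled Nkx2-1GFP+, called Nkx2-1 high, and 3 samples labelled Nkx2-1GFP-, called Nkx2-1 low. Both fractions derive from the same reporter line, and the labels' protocols call the samples biological replicates. The label "ES cells" names their origin: the pluripotency genes Pou5f1, Nanog, Zfp42 and Esrrb were not above background in either fraction.

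Expression is given as log2 values, so a difference of 1 is a doubling. A gene "rose" where it was higher in Nkx2-1 high, and "fell" where it was lower there, at a limma adjusted p under 0.05, adjusted by Benjamini-Hochberg over all 19938 genes. Differences are Nkx2-1 high minus Nkx2-1 low, ± the standard error (SE) from limma. The level under which a gene is called not above background was a log2 value of 4.30, the 95th percentile of olfactory and vomeronasal receptor rows. Array values of different genes depend on their probes, so levels are compared only between samples of the same gene. Nkx2-1 itself stood at 7.62, 7.77 and 7.77 in Nkx2-1 high, against 5.42, 5.23 and 5.34 in Nkx2-1 low. Medians per array ran from 5.24 to 5.30 over the genes, and the median absolute difference between replicates of a group ran from 0.11 to 0.20 over the members and from 0.10 to 0.13 over all genes.

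Cadherins are membrane proteins that bind cadherins on neighbouring cells through calcium-dependent extracellular repeats. Classical cadherins are tied to the actin cytoskeleton by catenins, and cells with different classical cadherins sort apart in the embryo. Delta-protocadherins are single genes that act mainly in neural and mesodermal tissue, while the clustered protocadherins lie in tandem and give neurons combinatorial surface identities.

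Of the 57 members 6 rose and 4 fell. The rises were Cdh3, Cdh13, Cdh26, Pcdh7, Pcdh9 and Pcdh11x, and the falls were Cdh10, Pcdh10, Pcdhb6 and Pcdhb7. That is 17.5% of the members, where 6.0% of all genes were called, 2.90% higher and 3.09% lower. Among genes above background in at least 1 fraction, 8 of 44 members and 8.40% of all genes were called. The shares are a description and were not tested against each other. Differences ran from -0.94 to 0.89 with a median of -0.10, where the median over all genes was -0.01. All 10 called members had groups that did not overlap, as did 24 members in all (42.1%), where 24.7% of all genes had. In 10 of them Nkx2-1 high lay above Nkx2-1 low, where 11.2% of all genes had this, and in 14 it lay below, where 13.5% of all genes had. An exact two-sided permutation test of a single such gene gives p = 0.1, the smallest that 3 samples against 3 allow. In sorted fractions like these, fewer cells of a type and less RNA per cell cannot be told apart.

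**Figure D1:**
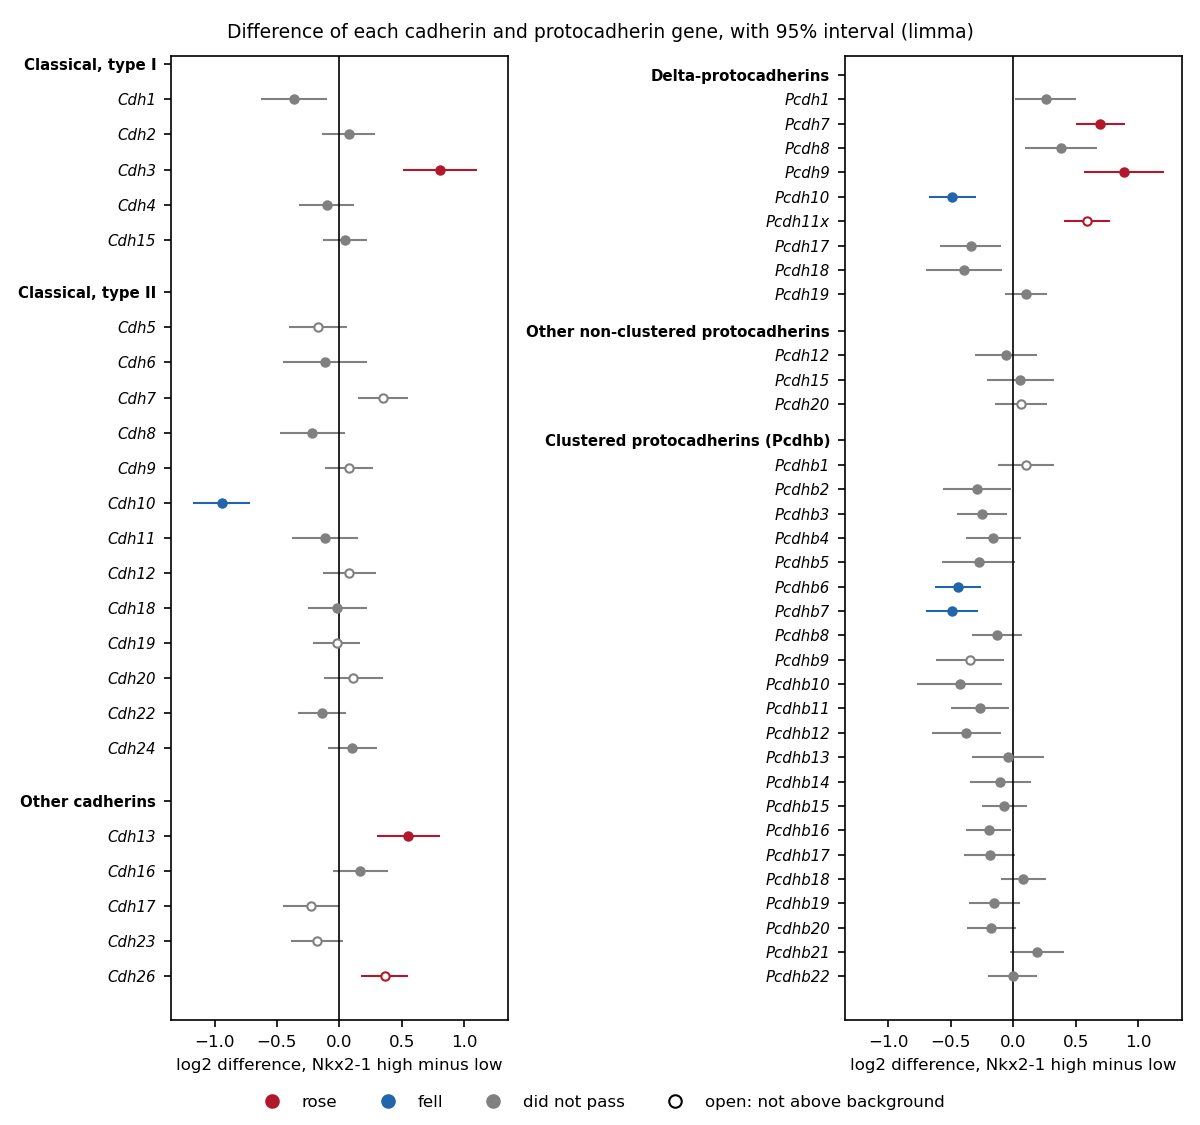
Log2 difference of each of the 57 members, Nkx2-1 high minus Nkx2-1 low, with the 95% interval from limma, by subgroup. Red points rose, blue points fell, grey points did not pass, and open points are genes not above background. The intervals of Cdh3, Pcdh7 and Pcdh9 start at 0.51, 0.50 and 0.56, and that of Cdh10 ends at -0.71.

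Among the type I classical cadherins, the P-cadherin gene Cdh3 rose, while the E-cadherin gene Cdh1 and the N-cadherin gene Cdh2 did not pass. Of the 5 type I genes 1 rose and 0 fell, where 2.90% of all genes rose and 3.09% fell. P-cadherin is found in placenta and in basal and embryonic epithelia. Cdh3 stood at 7.52, 7.26 and 6.95 in the 3 Nkx2-1 high samples, against 6.51, 6.49 and 6.33 in the 3 Nkx2-1 low samples. The lowest Nkx2-1 high value, of replicate 3, lay 0.44 above the highest Nkx2-1 low value. The difference was 0.80 ± 0.13, a 1.74-fold higher level in Nkx2-1 high (limma adjusted p = 0.00697), and it was called in each of the 6 fits without 1 sample. The spread between replicates was wider in Nkx2-1 high (SD 0.28, n = 3) than in Nkx2-1 low (SD 0.10, n = 3), a difference in spread that was not tested.

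E-cadherin is the main adhesion protein of most epithelia. Cdh1 stood at 4.74, 4.63 and 4.83 in Nkx2-1 high, against 4.93, 5.01 and 5.36 in Nkx2-1 low. The groups did not overlap and were 0.10 apart, with an SD of 0.10 in Nkx2-1 high and 0.23 in Nkx2-1 low (n = 3 each). The difference of -0.36 ± 0.12 did not pass (limma adjusted p = 0.114, 95% interval -0.62 to -0.10). It passed with array weights (adjusted p = 0.0453) and with the replicate number as a block (adjusted p = 0.0476), and in no fit without 1 sample. Cdh1 and Cdh3 are neighbours on the chromosome, with 0 protein-coding genes between them in RefSeq.

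N-cadherin is the classical cadherin of neural tissue and much of the mesenchyme. Cdh2 stood at 7.77, 7.77 and 7.99 in Nkx2-1 high, against 7.80, 7.64 and 7.87 in Nkx2-1 low. The groups overlapped, and the 95% interval of the difference ran from -0.14 to 0.29 (limma adjusted p = 0.742). The R-cadherin gene Cdh4, of retina and brain, differed by -0.10 ± 0.10. The M-cadherin gene Cdh15, of skeletal muscle, differed by 0.05 ± 0.08. Its values were 5.55 to 5.65 in Nkx2-1 high and 5.47 to 5.62 in Nkx2-1 low. Of 10 muscle markers 0 rose and 0 fell, where 2.90% of all genes rose and 3.09% fell. Among these 10, Myf5, Des, Myh3 and Ttn were not above background in either fraction.

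Cell type markers are given beside these values. Of 10 epithelial genes 0 rose and 2 fell, where 2.90% of all genes rose and 3.09% fell. The falls were the adhesion gene Epcam (-0.81 ± 0.11) and Tmem30b (-0.76 ± 0.14), and Cldn7, Esrp1 and Rab25 were not above background. The list did not go 1 way: 7 differences were negative and 3 positive. The positive ones were the keratin genes Krt8 (0.16 ± 0.10), Krt18 (0.35 ± 0.12) and Krt19 (0.12 ± 0.12), which did not pass. The mean log2 level of the list ran from 4.50 to 4.68 over the Nkx2-1 high samples and from 4.69 to 4.95 over the Nkx2-1 low samples. The part of any change in cell makeup in the values of Cdh3 and Cdh1 was not tested.

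**Figure D2:**
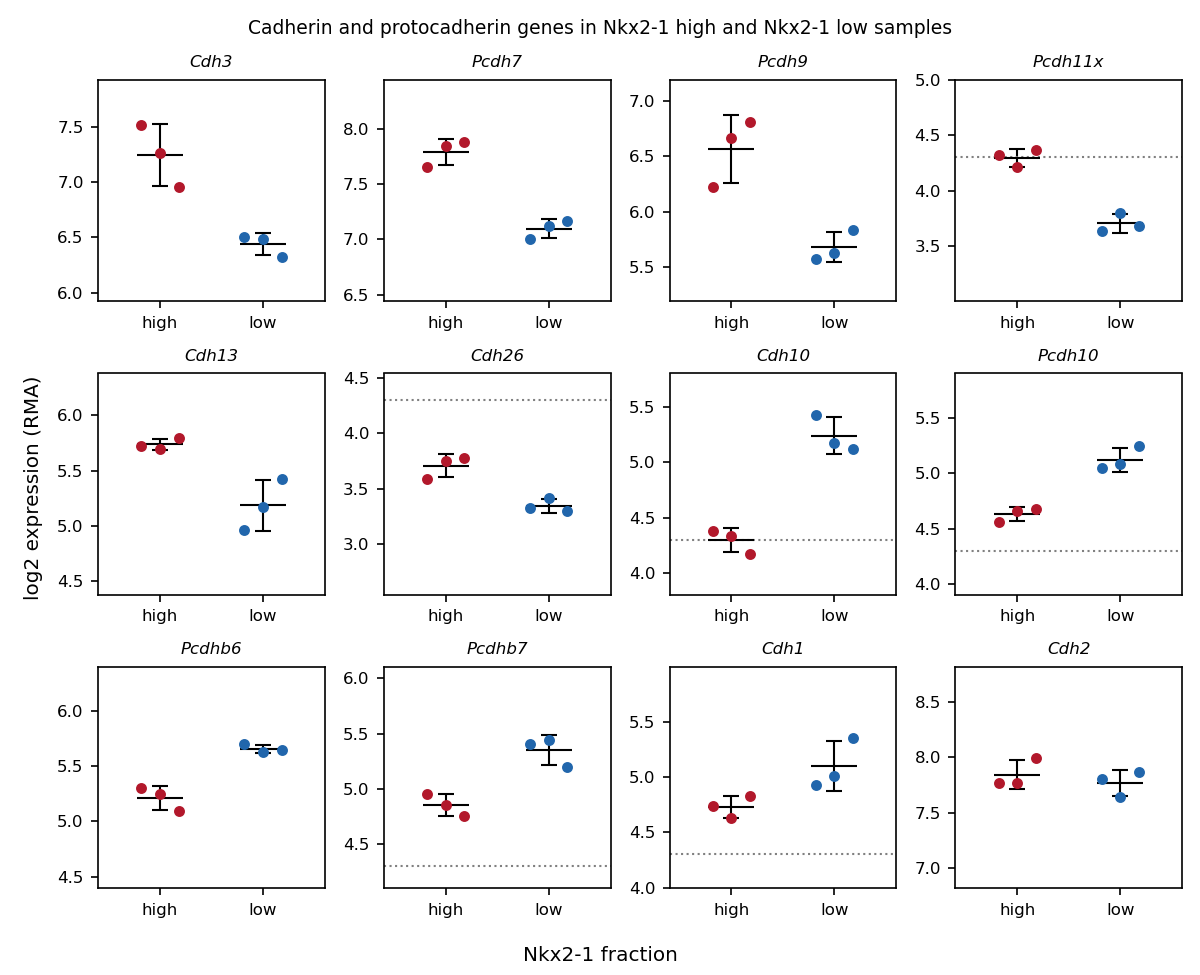
Log2 expression of the 10 called members and of Cdh1 and Cdh2 in each sample, Nkx2-1 high in red and Nkx2-1 low in blue, replicates 1 to 3 in each group running left to right. Horizontal bars are group means and error bars the SD (n = 3), the dotted line is the background level of 4.30. Cdh10 and Pcdh11x lie around the background level in Nkx2-1 high, and Cdh26 lies under it in both groups.

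Among the 13 type II classical cadherins Cdh10 fell, and no other member passed. That is 7.69% of the subgroup, close to the 6.0% of all genes that were called. Cdh10 is a cadherin of the brain. It stood at 4.38, 4.34 and 4.18 in Nkx2-1 high, against 5.43, 5.17 and 5.12 in Nkx2-1 low. The mean of Nkx2-1 high, 4.30, lay just under the background level, so only a bound can be given: Cdh10 was lower by a factor of at least 1.92 in Nkx2-1 high. The difference was -0.94 ± 0.10 (limma adjusted p = 0.000678), the largest in size among the 57 members. It was called in each of the 6 fits without 1 sample. Cdh9 and Cdh12, its neighbours among the cadherin genes of that chromosome, with 0 protein-coding genes between each and Cdh10, were not above background in either fraction.

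The mesenchymal cadherin gene Cdh11, which encodes OB-cadherin of osteoblasts and embryonic mesenchyme, was strongly expressed in both fractions and did not pass. Its values were 10.56, 10.48 and 10.19 in Nkx2-1 high and 10.69, 10.53 and 10.37 in Nkx2-1 low. The groups overlapped and the 95% interval ran from -0.38 to 0.14 (limma adjusted p = 0.658), so lower values by as much as 0.38 on the log2 scale lie inside it. Of 10 mesenchymal markers 7 fell and 0 rose, where 3.09% of all genes fell and 2.90% rose. The mean log2 level of that list ran from 7.60 to 8.05 in Nkx2-1 high and from 8.82 to 9.17 in Nkx2-1 low.

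Cdh6, a cadherin of the developing kidney and neural tube, stood at 6.78 to 7.26 in Nkx2-1 high and at 6.81 to 7.26 in Nkx2-1 low. Cdh8, Cdh22, Cdh24 and Cdh18, all above background, differed by -0.22 ± 0.12, -0.14 ± 0.09, 0.10 ± 0.09 and -0.02 ± 0.10. The VE-cadherin gene Cdh5, which defines endothelium, was not above background in either fraction (means of 3.77 in Nkx2-1 high and 3.94 in Nkx2-1 low). Of 10 endothelial markers 1 rose and 0 fell, where 2.90% of all genes rose and 3.09% fell. The rise was the receptor gene Tek (0.90 ± 0.10). Differences over that list were positive for 5 and negative for 5 (median 0.02). Cdh7, which marks migrating neural crest in the chick, was not above background either and missed the threshold (0.35 ± 0.09, limma adjusted p = 0.0540), which it passed after cyclic loess scaling and with array weights. Cdh19, a gene of crest-derived glial precursors, lay far under the background level, with means of 1.67 in Nkx2-1 high and 1.69 in Nkx2-1 low. Of 8 measured markers of neural crest and its glia 3 fell and 0 rose, where 3.09% of all genes fell and 2.90% rose. Cdh9, Cdh12 and Cdh20 were likewise not above background. Of the 13 genes 7 were above background in at least 1 fraction, and the median difference over all 13 was -0.02.

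Outside the classical groups, Cdh13 rose. It encodes T-cadherin, which is held by a lipid anchor and lacks the cytoplasmic tail that binds catenins. Cdh13 stood at 5.72, 5.69 and 5.79 in Nkx2-1 high, against 4.96, 5.17 and 5.42 in Nkx2-1 low. The groups were 0.27 apart, and the spread was smaller in Nkx2-1 high (SD 0.05, n = 3) than in Nkx2-1 low (SD 0.23, n = 3), which was not tested. The difference was 0.55 ± 0.11, 1.47-fold (limma adjusted p = 0.0190). The call was lost without any 1 sample other than Nkx2-1 low replicate 3, with adjusted p from 0.0528 to 0.0688, while the difference stayed between 0.44 and 0.67.

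Cdh26 also rose by the test but was not above background, with values of 3.59, 3.75 and 3.78 in Nkx2-1 high and 3.32, 3.42 and 3.30 in Nkx2-1 low. It is given no fold, and its call (limma adjusted p = 0.0340) was lost without any 1 sample other than Nkx2-1 high replicate 1 (adjusted p up to 0.133). Cdh16, a cadherin of kidney tubules and thyroid follicles, stood at 4.41, 4.59 and 4.65 in Nkx2-1 high, against 4.29, 4.33 and 4.53 in Nkx2-1 low. Both groups lay next to the background level and overlapped (0.17 ± 0.10, limma adjusted p = 0.418). Neither Cdh17, of intestinal epithelium, nor Cdh23, of the tip links of inner-ear hair cells, was above background.

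Delta-protocadherins moved in both directions. Of 9 genes 3 rose and 1 fell, where 2.90% of all genes rose and 3.09% fell. For 8 of the 9 the groups did not overlap, where 24.7% of all genes had such groups. Pcdh1, Pcdh7, Pcdh9 and Pcdh11x form the delta-1 group, which has longer extracellular domains, and all 4 had a positive difference (median 0.64). The delta-2 group, Pcdh8, Pcdh10, Pcdh17, Pcdh18 and Pcdh19, had 2 positive and 3 negative differences (median -0.34). This split follows the textbook families, was looked at with the values known, and was given no test.

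Promoter windows (GRCm38.p6) were at hand for some of the called members above background and are shown here. These genes were picked because they were called, and a shared regulation was not tested. Pcdh7 and Pcdh9 rose, and Cdh10 and Pcdh10 fell. Each runs 5′ to 3′ from 250 bases before to 50 after the annotated start, and capitals mark CAAG on either strand, the core of sites bound by NKX2 homeodomain proteins. For Pcdh9 the first listed of its windows is printed.
Pcdh7, chr5:57717831-57718130, + strand: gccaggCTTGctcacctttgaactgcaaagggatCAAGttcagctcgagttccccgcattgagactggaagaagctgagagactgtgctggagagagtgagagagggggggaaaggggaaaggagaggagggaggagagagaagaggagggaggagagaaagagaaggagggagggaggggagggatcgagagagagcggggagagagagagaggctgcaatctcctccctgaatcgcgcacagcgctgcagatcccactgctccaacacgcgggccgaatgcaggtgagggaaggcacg
Pcdh9, chr14:93890630-93890929, - strand: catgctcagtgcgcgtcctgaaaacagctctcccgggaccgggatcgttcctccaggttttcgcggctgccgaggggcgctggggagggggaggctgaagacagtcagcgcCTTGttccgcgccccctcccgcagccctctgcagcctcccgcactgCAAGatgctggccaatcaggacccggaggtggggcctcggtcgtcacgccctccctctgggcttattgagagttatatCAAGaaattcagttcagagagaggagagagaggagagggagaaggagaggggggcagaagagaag
Cdh10, chr15:18820079-18820378, + strand: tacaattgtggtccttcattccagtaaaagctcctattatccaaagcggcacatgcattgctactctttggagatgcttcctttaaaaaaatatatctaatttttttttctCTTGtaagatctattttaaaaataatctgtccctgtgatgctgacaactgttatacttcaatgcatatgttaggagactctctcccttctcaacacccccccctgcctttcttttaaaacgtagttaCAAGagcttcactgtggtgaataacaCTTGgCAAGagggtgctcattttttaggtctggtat
Pcdh10, chr3:45378148-45378447, + strand: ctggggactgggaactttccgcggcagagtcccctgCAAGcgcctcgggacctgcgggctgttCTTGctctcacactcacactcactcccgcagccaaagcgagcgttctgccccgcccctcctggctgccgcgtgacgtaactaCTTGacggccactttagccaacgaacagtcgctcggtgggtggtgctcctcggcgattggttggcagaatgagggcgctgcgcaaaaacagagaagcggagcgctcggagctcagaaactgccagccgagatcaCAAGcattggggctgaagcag
The core occurred 2 times in the window of Pcdh7, 3 times in that of Pcdh9 and 4 times in each of those of Cdh10 and Pcdh10. It occurs in 90.7% of the 27025 gene windows of this length (median of 2), so its presence sets none of these genes apart. The longer CAAGTG, which contains the core and was also searched on both strands, was found in 13.5% of all windows and among these 4 only in that of Cdh10. The E-box CACCTG, bound by Snai and Zeb repressors and searched on both strands, was found in 20.0% of all windows and among these 4 only in that of Pcdh7. The window of Cdh10 held 2 CG dinucleotides, against 11, 18 and 24 in those of Pcdh7, Pcdh9 and Pcdh10 and a median of 7 over all windows. Windows were held for 22 of the 57 members, and a match of letters does not show binding.

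Pcdh7, known in the frog as NF-protocadherin of the neural folds and ectoderm, rose. It stood at 7.66, 7.84 and 7.88 in Nkx2-1 high, against 7.00, 7.12 and 7.17 in Nkx2-1 low. The groups were 0.49 apart, with an SD of 0.12 in Nkx2-1 high and 0.09 in Nkx2-1 low (n = 3 each). The mean difference was 0.70 ± 0.09, 1.62-fold (limma adjusted p = 0.00182).

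Pcdh9, expressed in the developing brain and other tissues, had the largest rise of the family. Its levels were 6.22, 6.67 and 6.81 in Nkx2-1 high, against 5.57, 5.63 and 5.83 in Nkx2-1 low. Every Nkx2-1 high sample lay above every Nkx2-1 low sample, by at least 0.39, and Nkx2-1 high replicate 1 was the lowest of its group. The difference was 0.89 ± 0.14, 1.85-fold (limma adjusted p = 0.00641). A further row for Pcdh9 gave 0.81 ± 0.17 in the fit of all rows (adjusted p = 0.0256).

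The X-linked Pcdh11x rose as well, with 4.32, 4.21 and 4.37 in Nkx2-1 high and 3.64, 3.80 and 3.68 in Nkx2-1 low. Its mean in Nkx2-1 high, 4.30, lay just under the background level, so it is given no fold (difference 0.59 ± 0.08, limma adjusted p = 0.00297). Pcdh1, a protocadherin of airway epithelium among other tissues, differed by 0.26 ± 0.11 with overlapping groups (limma adjusted p = 0.237). Pcdh7, Pcdh9 and Pcdh11x were called in each of the 6 fits without 1 sample.

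Pcdh10 fell. It encodes OL-protocadherin, which recruits the WAVE actin regulators through Nckap1. Its levels were 4.56, 4.66 and 4.68 in Nkx2-1 high, against 5.04, 5.08 and 5.24 in Nkx2-1 low. The groups were 0.36 apart, at levels close to background in Nkx2-1 high. The difference was -0.49 ± 0.08, 1.40-fold lower in Nkx2-1 high (limma adjusted p = 0.00863), and it was called in each of the 6 fits without 1 sample.

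The other delta-2 genes did not pass. Pcdh8, the paraxial protocadherin gene of early mesoderm, stood at 4.68, 4.91 and 5.24 in Nkx2-1 high, against 4.48, 4.58 and 4.62 in Nkx2-1 low (0.38 ± 0.13, limma adjusted p = 0.131). Pcdh17 stood at 5.71, 6.07 and 5.72 in Nkx2-1 high, against 6.11, 6.27 and 6.13 in Nkx2-1 low (-0.34 ± 0.11, limma adjusted p = 0.115). Without Nkx2-1 high replicate 1 Pcdh8 passed (adjusted p = 0.0469), and without Nkx2-1 high replicate 2 Pcdh17 did (adjusted p = 0.0408). Pcdh18 stood at 9.63, 9.55 and 9.17 in Nkx2-1 high, against 10.02, 9.88 and 9.64 in Nkx2-1 low, with replicate 3 the lowest of each group. The groups all but touched, and the difference did not pass (-0.39 ± 0.14, limma adjusted p = 0.144). Pcdh19, whose human counterpart is mutated in an epilepsy of girls, differed by 0.10 ± 0.07.

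Of the remaining non-clustered protocadherins 0 of 3 passed, and at an unadjusted p under 0.05 it was also 0. Pcdh12, of endothelium, and Pcdh15, the tip-link partner of Cdh23, were above background and differed by -0.06 ± 0.11 and 0.06 ± 0.12. Pcdh20 was not above background.

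Most clustered protocadherins stood slightly lower in Nkx2-1 high, and Pcdhb6 and Pcdhb7 passed the test. Of 22 Pcdhb genes 0 rose, 2 fell and 20 did not pass, a called share of 9.09% where 6.0% of all genes were called. At an unadjusted limma p under 0.05, 0 were higher and 9 were lower, where 1708 and 2082 of all 19938 genes were. The difference was negative for 19 of the 22 (86.4%), where it was negative for 52.4% of all genes, and the median difference was -0.18. In 8 genes all Nkx2-1 high samples lay under all Nkx2-1 low samples, where 13.5% of all genes had this, and in 1, Pcdhb21, they lay above, where 11.2% of all genes had. Pcdhb genes are single-exon paralogs of similar sequence, so signal of one gene can reach the probes of another, and their differences are not independent.

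Pcdhb6 stood at 5.30, 5.25 and 5.09 in Nkx2-1 high, against 5.70, 5.63 and 5.64 in Nkx2-1 low. The groups were 0.33 apart, with a difference of -0.44 ± 0.08, 1.36-fold lower in Nkx2-1 high (limma adjusted p = 0.0125). Its neighbour Pcdhb7 stood at 4.96, 4.86 and 4.76 in Nkx2-1 high, against 5.41, 5.44 and 5.19 in Nkx2-1 low. The difference was -0.49 ± 0.09, 1.41-fold lower in Nkx2-1 high (limma adjusted p = 0.0148). Pcdhb6 was called in each of the 6 fits without 1 sample. Pcdhb7 was lost without replicate 2 of Nkx2-1 high and without replicate 1 or replicate 2 of Nkx2-1 low (adjusted p from 0.0579 to 0.0646).

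Further along the cluster, Pcdhb10 stood at 4.70, 4.81 and 4.74 in Nkx2-1 high, against 5.43, 5.33 and 4.77 in Nkx2-1 low. The difference of -0.43 ± 0.15 did not pass (limma adjusted p = 0.154), and without Nkx2-1 low replicate 3, which lay at the level of Nkx2-1 high, it did (adjusted p = 0.00545). Pcdhb12 differed by -0.38 ± 0.12 (limma adjusted p = 0.120) and passed without Nkx2-1 high replicate 3 (adjusted p = 0.0182). At the end of the cluster Pcdhb22 differed by -0.01 ± 0.09, with a 95% interval from -0.20 to 0.19. The genes with positive differences were Pcdhb21 (0.19 ± 0.10), Pcdhb1 (0.10 ± 0.10, not above background) and Pcdhb18 (0.08 ± 0.08). Pcdhb9 was not above background. Pcdhb16 (-0.20 ± 0.08) and Pcdhb2 (-0.29 ± 0.12) did not pass.

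**Figure D3:**
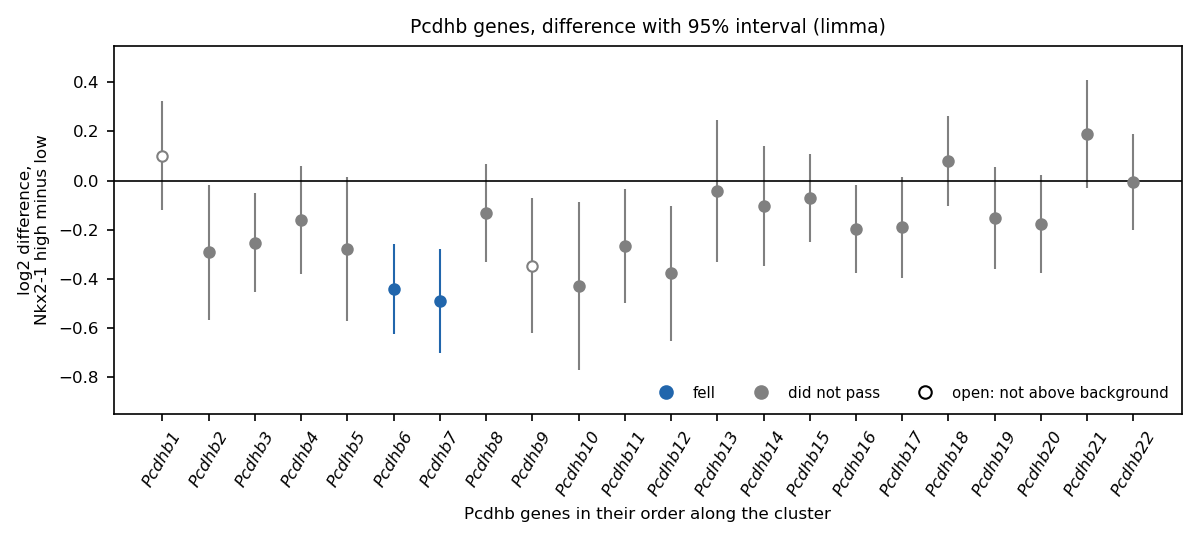
Log2 difference of the 22 Pcdhb genes, Nkx2-1 high minus Nkx2-1 low, in their order along the cluster, with 95% intervals from limma. Blue points fell, grey points did not pass, and open points were not above background. Points from Pcdhb2 to Pcdhb12 lie between -0.49 and -0.13, and the 3 above 0 are Pcdhb1, Pcdhb18 and Pcdhb21.

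Most neuronal markers were lower in Nkx2-1 high. Of 10 such genes 6 fell and 0 rose, where 3.09% of all genes fell and 2.90% rose. The median difference of the list was -0.73. The mean log2 level of the list ran from 4.78 to 5.10 over the Nkx2-1 high samples and from 5.67 to 5.75 over the Nkx2-1 low samples, and all 10 were above background in at least 1 fraction. Members and partners also known from brain moved both ways, with Cdh10 and Pcdh10 among the falls and Pcdh9 and Ctnnd2 among the rises. The part of neuronal cells in any of these values, or in those of Pcdhb6 and Pcdhb7, was not tested. The proteins that shape the clustered locus, such as cohesin, Ctcf and DNA methylation enzymes, had a median difference of -0.09 over 15 genes. They gave 0 rises and 1 fall, where 2.90% of all genes rose and 3.09% fell. The fall was Dnmt1 (-0.30 ± 0.07, limma adjusted p = 0.0402), the maintenance DNA methyltransferase, which was lost in each of the 6 fits without 1 sample (adjusted p from 0.0907 to 0.125) and also with arrays centred on a common median (0.0516), with cyclic loess (0.0544), without eBayes (0.0606) and without both samples numbered 3 (0.143). Ctcf differed by -0.16 ± 0.07 (limma adjusted p = 0.282) and Smchd1, which silences clustered protocadherins, by -0.31 ± 0.10 (limma adjusted p = 0.0968).

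Catenins, which link classical cadherins to actin, changed in a few members. Of 20 genes of catenins and junction partners 2 rose and 1 fell (median difference 0.02), where 2.90% of all genes rose and 3.09% fell. Ctnnd2, which encodes delta-catenin, a partner of the cadherin tail known from neurons, rose. It stood at 6.93, 6.86 and 7.12 in Nkx2-1 high, against 5.94, 5.86 and 6.11 in Nkx2-1 low. The groups were far apart relative to their spread, with a difference of 1.00 ± 0.10 (limma adjusted p = 0.000432). Jup, which encodes plakoglobin of adherens junctions and desmosomes, rose by 0.58 ± 0.12 (limma adjusted p = 0.0248), a call lost without any 1 sample other than Nkx2-1 high replicate 3 (adjusted p up to 0.0812). Ctnna2, the alpha-catenin gene of neurons, fell (-0.51 ± 0.11, limma adjusted p = 0.0242) and lost this call in 4 fits of the 6 that leave a sample out (adjusted p up to 0.0941). The widely expressed Ctnnb1, Ctnnd1 and Ctnna1 differed by 0.08 ± 0.08, 0.09 ± 0.09 and 0.22 ± 0.10 and did not pass.

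**Figure D4:**
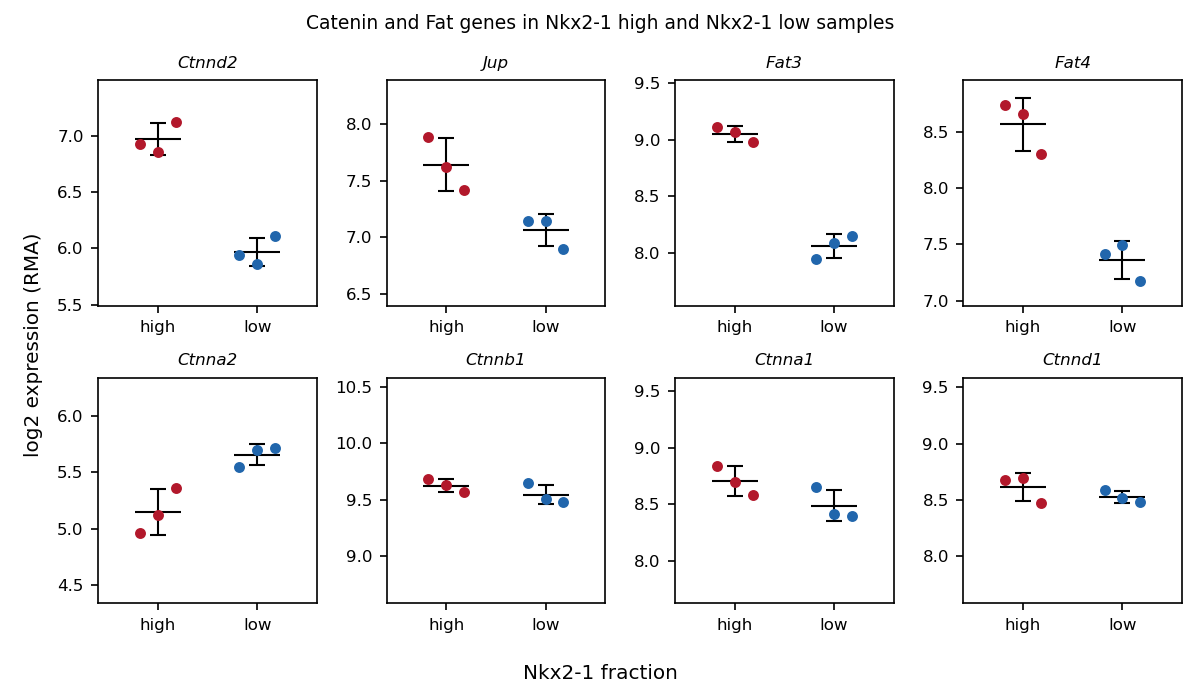
Log2 expression of catenin genes and of Fat3 and Fat4 in each sample, Nkx2-1 high in red and Nkx2-1 low in blue, with group means and SD (n = 3). Ctnnd2, Fat3 and Fat4 lie about 1 log2 unit higher in Nkx2-1 high, with no overlap, and the groups of Ctnnb1, Ctnna1 and Ctnnd1 overlap.

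Elsewhere in the superfamily, the giant cadherin genes Fat3 and Fat4 rose. Fat4, a receptor of planar polarity and growth signals bound by Dchs1, stood at 8.74, 8.66 and 8.30 in Nkx2-1 high, against 7.42, 7.49 and 7.18 in Nkx2-1 low. The difference was 1.20 ± 0.13, 2.30-fold (limma adjusted p = 0.000621). Fat3, which shapes neurons in the retina, stood at 9.12, 9.07 and 8.98 in Nkx2-1 high, against 7.94, 8.08 and 8.15 in Nkx2-1 low (1.00 ± 0.08, limma adjusted p = 0.000174). In both genes every Nkx2-1 high sample lay above every Nkx2-1 low sample. A list of 22 measured genes held the desmosomal, Fat, Dchs, Celsr, Cdhr and calsyntenin types and Ret. Of these 2 rose and 1 fell, Cdhr2 (-0.34 ± 0.09), which was not above background. The call of Cdhr2 was lost without any 1 sample other than Nkx2-1 low replicate 1 (adjusted p up to 0.161). Among 10 measured signalling partners of protocadherins 0 rose and 1 fell, the kinase gene Fyn (-0.50 ± 0.09, limma adjusted p = 0.00892). Beside both lists, 2.90% of all genes rose and 3.09% fell.

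Transcription factors and proteases that act on cadherins moved both ways. Of 16 measured genes, among them Twist1, which the mesenchymal markers also hold, 2 rose and 3 fell (median difference 0.00). Over all genes 2.90% rose and 3.09% fell. Snai1, Snai2 and Twist1, which repress Cdh1 in epithelial cells, fell by 0.39, 0.65 and 0.95 on the log2 scale (limma adjusted p = 0.0420, 0.0373 and 0.00185). Zeb2, another repressor of Cdh1, rose by 0.44 ± 0.08 (limma adjusted p = 0.0144), and Ncstn, a subunit of the gamma-secretase that cleaves cadherin stubs, by 0.32 ± 0.08 (limma adjusted p = 0.0454). Without 1 sample Snai1, Snai2 and Ncstn were each lost in 5 of 6 fits and Zeb2 in 3, while Twist1 was called in all 6. Snai1 and Ncstn were also lost with arrays centred on a common median (adjusted p = 0.0573 and 0.0596) and without both samples numbered 3 (0.0892 and 0.0628). Zeb1 differed by -0.04 ± 0.08.

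**Figure D5:**
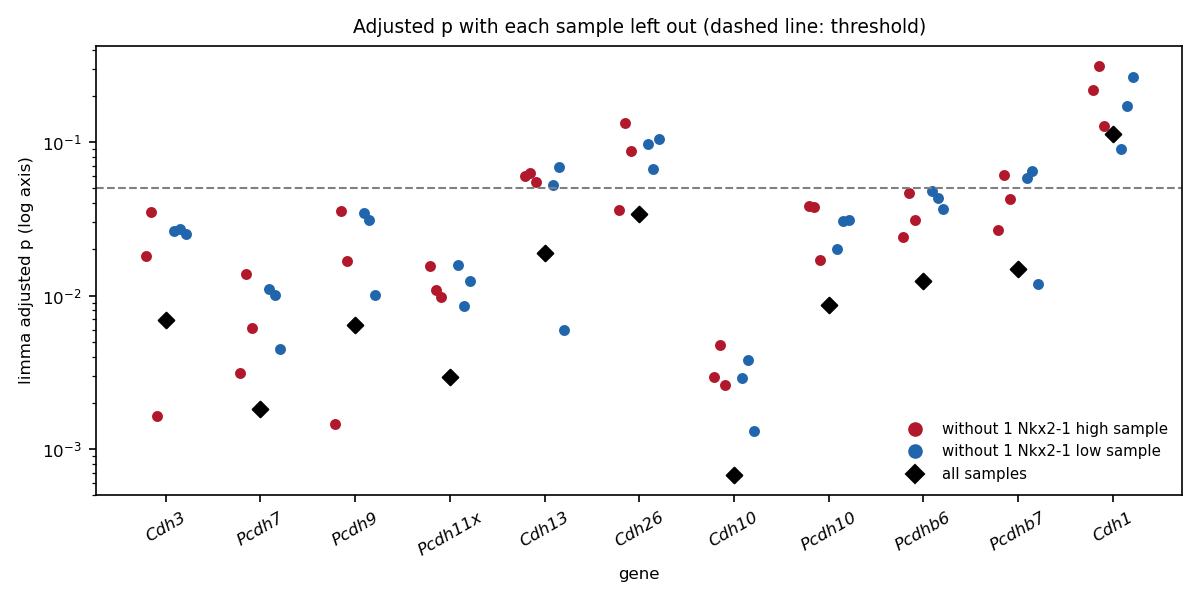
Limma adjusted p, on a log axis, of the 10 called members and of Cdh1 with all samples (black diamonds), without 1 Nkx2-1 high sample (red) and without 1 Nkx2-1 low sample (blue); the dashed line marks 0.05. Points of Cdh3, Pcdh7, Pcdh9, Pcdh11x, Cdh10, Pcdh10 and Pcdhb6 lie under the line in all fits, and those of Cdh13, Cdh26 and Pcdhb7 cross it.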

How the data were processed

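The values are log2 expression values as the authors deposited them, with RMA named in the submitters' processing notes. The log2 scale was taken from the values and from the use of RMA, with no version or genome build given in the sources used here. Amplification used the WT-Ovation Pico system, per the labels' protocols, and can change the relative signal of transcripts. GEO's platform annotation pairs 21789 of 29011 rows with 1 symbol, 1621 with several and 5601 with none. Matched by Entrez gene ID, 21698 of the single-symbol rows were found in the RefSeq table of GRCm38.p6. The background level is a percentile over all 6 samples of 1210 receptor rows.

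The fit across 19938 genes used lmFit and eBayes of limma 3.58.1 (R 4.3.3) with group as its only term. Its power was limited when tried on 1 simulated data set. There, 100 genes were altered by 0.5 and a further 100 by 1 on the log2 scale, up or down. Recovery was 47% where the true log2 difference was 0.5 and 92% where it was 1. The 9 false calls are the total of that 1 data set. With no gene altered there were 0 calls. A true difference of 0.5 can thus go uncalled, and a gene that did not pass is not shown to be unchanged. Figures used matplotlib 3.10.9. Members named are all that passed, Cdh1, Cdh2 and Cdh3. In each subgroup the 3 with the highest mean and the 3 with the largest difference among those above background are also named. In the lists of partner genes, all that passed are named, and in the lists of cell type markers only some of those that passed. Any further gene was chosen after its values were seen. The members, subgroups, lists of partner genes and cell type markers were chosen with earlier results of these data known. The alternatives were median centring, cyclic loess, filters on dim genes, a threshold of 0.01, trend and robust eBayes, no eBayes, array weights, the replicate block, other row choices and samples left out. No batch is known from the labels. The number of arrays limits the precision.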

Additional observations from a re-analysis of the deposited data

How the results depend on the processing

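The number of members that rose, 6 as reported, ran from 4 to 7 over the alternatives other than a test per gene without eBayes, and from 4 to 6 without 1 sample. The number that fell, 4 as reported, ran from 3 to 5 without 1 sample. It was 1 with only genes brighter than the median gene, where 25 members were tested, 2 at an adjusted p threshold of 0.01, and 7 with the replicate block, which added Cdh1, Pcdh17 and Pcdh18 (adjusted p = 0.0476, 0.0444 and 0.0195). Among the listed genes the block ended the calls of Dnmt1, Ncstn and Cdhr2 (adjusted p = 0.0506, 0.0550 and 0.0617). Without eBayes 0 rose and 0 fell, while an unadjusted p under 0.05 was reached by 8 higher and 6 lower members. The share of all genes at that level in the same fit is not given here, so these counts are no result about the members. The replicate numbers were not taken as pairs. Deviations of same-numbered samples correlated at 0.18, -0.00 and 0.28 over all genes. The samples numbered 1 and 3 correlated best with their own number and those numbered 2 did not, so these values do not settle whether the samples are paired. Without both samples numbered 3, Cdh26 (adjusted p = 0.181) and Pcdhb6 (0.0622) were lost, and Pcdhb2, Pcdhb10 and Pcdhb12 were gained, and among the listed genes Cdhr2 was lost (0.227); trend and robust eBayes ended it too (0.0641). The number of Pcdhb genes with a negative difference, 19 of 22 as reported, ran from 17 to 19 over the alternatives that tested all 22. Signal near background limits Cdh10, Pcdh11x and Cdh26.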

Other observations

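The genes of the alpha cluster share 1 row that carries 14 symbols, from Pcdha1 to Pcdhac2, so no single gene of it was measured on a row of its own. That row stood at 4.92, 4.98 and 4.99 in Nkx2-1 high, against 5.24, 5.15 and 5.15 in Nkx2-1 low. The groups did not overlap and the row was not part of the test. Besides its own row, Cdh11 is named on 3 rows with several symbols, with means of 10.46, 9.47 and 10.47 in Nkx2-1 high and 10.51, 9.48 and 10.50 in Nkx2-1 low. A dimmer row of Pcdh15, with means of 3.46 in Nkx2-1 high and 3.11 in Nkx2-1 low, was not above background but passed in the fit of all rows (0.35 ± 0.09, limma adjusted p = 0.0450), where the row used for Pcdh15 gave 0.06 ± 0.12. The further row of Cdh24 differed by -0.06 ± 0.08, where the row used gave 0.10 ± 0.09, and neither passed.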
